A study of Mus musculus with 12 samples.

Results

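The 9 genes of the contractile and perivascular cells of the kidney are described here in sorted kidney tubules. They are the platelet-derived growth factor (PDGF) receptors Pdgfra and Pdgfrb, the intermediate filament gene Des, the smooth muscle genes Acta2, Myh11, Tagln and Cnn1, the renin gene Ren1 and the signalling regulator Rgs5. They were chosen by name, and each probe of the array that carries one of these 9 gene names was taken, which gave 17 of the array's 41174 probes. Of these, 15 were bright enough to be tested, among 25818 probes tested in all, and each of the 9 genes kept at least 1 tested probe.

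Renal tubules of 4 mice were sorted on a large-particle flow sorter (COPAS) into 3 fractions, and the RNA of each fraction of each mouse was hybridised to 1 one-colour array. The EGFP+ fraction holds fluorescent tubules, which the design text names as distal convoluted tubules (DCT), the nephron segment that reabsorbs salt through the thiazide-sensitive cotransporter. The EGFP- fraction holds the tubules without fluorescence, and ALL is the total suspension. Each fraction has n = 4 animals, of which mice 1 and 3 are female and mice 2 and 4 are male, and the labels name no treatment. The sources used here do not give the promoter that drives EGFP, the strain or the age. The 9 genes are known mainly from kidney cells other than the tubule epithelium. In bulk RNA of this kind, fewer cells of a type and less RNA per cell cannot be told apart.

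Mesangial cells sit between the capillary loops of the glomerulus, vascular smooth muscle wraps the arterioles, pericytes lie along the capillaries, and renin cells are modified smooth muscle cells in the wall of the afferent arteriole next to the glomerulus. These cells share a developmental origin in the stroma and carry PDGF receptor beta, which PDGF-B from the endothelium stimulates. Contractile cells of this kind express smooth muscle actin and its partners, whereas renin cells store renin, the protease that starts the angiotensin cascade by cleaving angiotensinogen. PDGF receptor alpha marks interstitial fibroblasts and some mesangial cells, so the 9 genes do not all belong to 1 cell type.

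Levels are given as log2 processed signal minus the 75th percentile of the array, so that 0 is the array's upper quartile. That percentile ran from 941 to 2359 signal units over the 12 arrays, with mouse 4 dimmest in ALL and EGFP-. The scanner software called 53.9% to 65.6% of probes on an array well above background. The sort was checked on Slc12a3, the cotransporter that defines the DCT, which was at 7.49 ± 0.22 in EGFP+ tubules, 4.44 ± 0.33 in the total and -0.91 ± 0.67 in EGFP- tubules (SD, n = 4). A level is not compared between probes, since each probe has its own brightness.

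The genes were low in the DCT fraction, whereas the ALL and EGFP- arrays did not separate. Against EGFP- tubules, 14 of the 15 tested probes were lower in EGFP+ tubules and 0 were higher (limma, Benjamini-Hochberg adjusted p at most 6.8e-04 for the 14), where 23.4% of all tested probes were lower and 34.7% higher. Of the 14, Pdgfra A_51_P345649, Des A_51_P335969 and the Acta2 probes A_52_P210078 and A_52_P239556 had no EGFP+ array well above background. They were bright enough to be tested only through the other fractions, so that only a fall could be called. Their p-values rest on EGFP+ signals near background. The median difference of the 15 probes was -3.24, against 0.17 over all tested probes. Against ALL tubules, 14 of 15 were again lower and 0 higher (22.2% and 33.8% of all tested probes), with a median of -2.95. Normexp, a model-based background correction, was run on the mean and local background signals in place of the software's processed signal. An offset of 50 signal units was added to each spot, which makes the ratios of dim probes smaller, a part that was not tested. With normexp 9 of 15 were lower in each comparison, beside 3787 of all tested probes against EGFP- and 3293 against ALL. The medians of the 15 differences were -1.34 from EGFP- and -1.25 from ALL. The folds and bounds below are therefore those of the processed signal, and for the 9 genes the normexp value against EGFP- is given where it is over 1.5 times smaller. These comparisons share the EGFP+ arrays and are not independent of each other. For each of the 14 probes the EGFP+ arrays did not overlap with those of either other fraction and the probe was lower in 4 of 4 mice. How many of all tested probes do the same was not counted. Of the 9 genes, 8 had every tested probe lower, and the other one, Acta2, had 1 probe that did not fall.

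**Figure D1:**
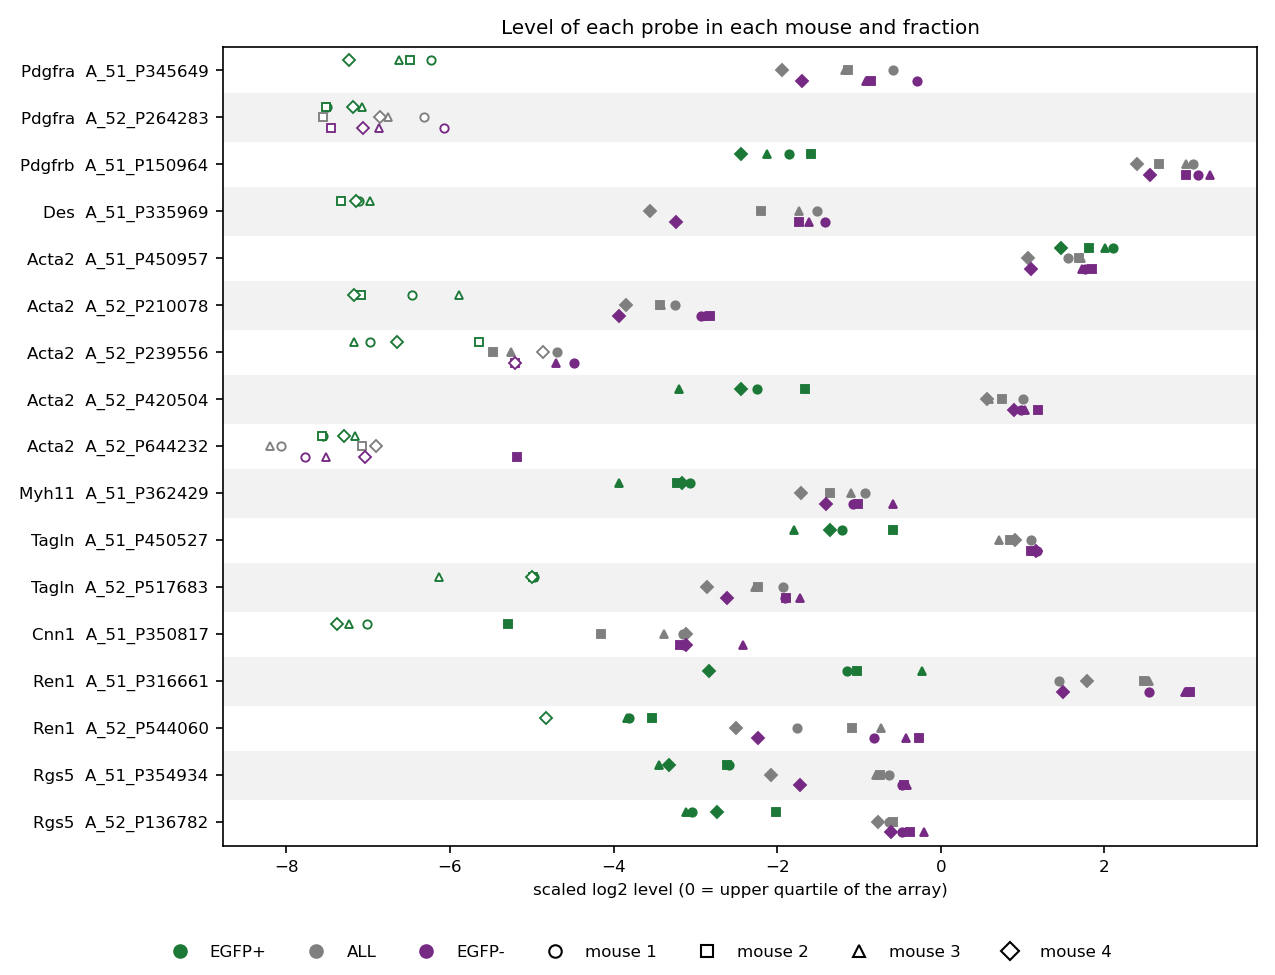
Scaled log2 level (horizontal axis) of each of the 17 probes in each fraction (colour) and mouse (shape). Open symbols are spots not well above background. For 14 probes all EGFP+ points lie left of all ALL and EGFP- points.

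**Figure D2:**
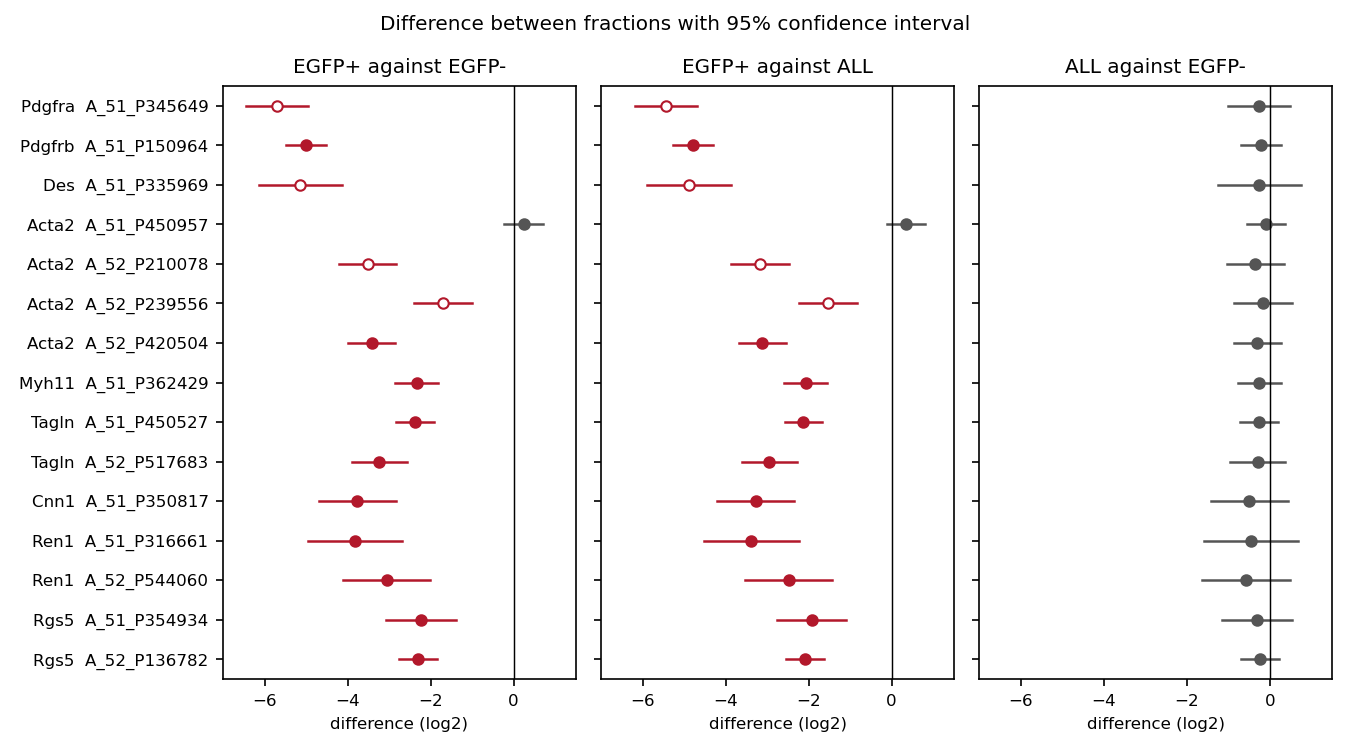
Difference between fractions on the log2 scale for the 15 tested probes, with 95% confidence intervals from the limma fit. Red marks an adjusted p under 0.05, and open circles mark probes with no EGFP+ array well above background, whose difference is not a measured fold. In the panel of ALL against EGFP- all 15 points lie between -0.58 and -0.10, and each interval includes 0.

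Pdgfrb, the receptor for PDGF-B that mesangial cells, pericytes and smooth muscle share, was measured well above background on all 12 arrays by 1 probe on chromosome 18. Its levels in mice 1 to 4 were -1.86, -1.59, -2.13 and -2.44 in EGFP+ tubules. They were 3.08, 2.67, 3.0 and 2.40 in ALL tubules, and 3.14, 3.0, 3.29 and 2.56 in EGFP- tubules. The EGFP+ arrays stood far below the others, while ALL and EGFP- overlapped. Pdgfrb was 32.1-fold lower in EGFP+ than in EGFP- tubules (95% confidence interval 22.9 to 44.9; difference -5.00 ± 0.22 SE, adjusted p = 7.2e-09 by limma) and 27.6-fold lower than in ALL tubules. Within slides 1, 2 and 3, which each held 4 arrays of mixed fractions and sexes, the difference from EGFP- was -4.87, -5.13 and -5.36. On slide 2 this sets the EGFP+ array of female mouse 3 against the EGFP- array of male mouse 2. The other slides mix mice too, so within-slide values here and below do not part slide from mouse. The residual level of Pdgfrb in EGFP+ tubules was 3.18% ± 0.739 of the EGFP- level of the same mouse (SD, n = 4). It ran from 2.34% in mouse 3 to 4.14% in mouse 2.

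Pdgfra, the receptor that binds PDGF-A and PDGF-C, was read by 2 probes on chromosome 5. The probe at 75479560 to 75479619 (mm8, plus strand; 10 spots per array) gave -0.29, -0.86, -0.91 and -1.70 in EGFP- tubules and -0.59, -1.13, -1.17 and -1.94 in ALL tubules. No EGFP+ array was well above background there, so that only a bound can be given. Pdgfra was at least 20.3-fold lower in EGFP+ than in EGFP- tubules (limma adjusted p = 5.5e-08) and at least 16.9-fold lower than in ALL tubules. With normexp the difference from EGFP- was -2.20 ± 0.44 SE, or 4.60-fold (adjusted p = 0.00185), which is below that bound. For such a bound each EGFP+ array was given the lowest signal that any probe well above background had there, or the spot's own signal where that was higher, and the mean of these was set against the mean of the brighter fraction. The other Pdgfra probe, at 75445285 to 75445344, was not well above background on any of the 12 arrays and was not tested.

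The ligands of these receptors, from a list of 4 genes that all were tested, did not move as a group. Pdgfb, a ligand of PDGF receptor beta, was 7.77-fold lower in EGFP+ than in EGFP- tubules (difference -2.96 ± 0.49 SE, limma adjusted p = 2.7e-04), with 3 of 4 EGFP+ arrays well above background. Pdgfa was 1.75-fold higher (0.81 ± 0.17, adjusted p = 0.00134), Pdgfd 1.42-fold higher (0.51 ± 0.18, adjusted p = 0.0271) and Pdgfc 1.26-fold higher (0.33 ± 0.10, adjusted p = 0.0158). Without mouse 2 there was 1 higher call in place of 3, without mouse 3 there was 1, and with normexp 1. The 3 higher ligand calls thus did not all hold under these alternatives. Of all tested probes 34.7% were called higher and 23.4% lower in this comparison.

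Des encodes desmin, the intermediate filament of muscle and mesangial cells. Its probe (chromosome 1, 75249977 to 75250202, mm8, plus strand; 60 bases over a span of 226, so that it joins separate stretches of the genome) was read on 10 spots per array. Its levels were -1.42, -1.74, -1.61 and -3.24 in EGFP- tubules of mice 1 to 4 and -1.51, -2.20, -1.74 and -3.55 in ALL tubules. Mouse 4 was the lowest in both. No EGFP+ array was well above background, and Des was at least 9.71-fold lower in EGFP+ than in EGFP- tubules (limma adjusted p = 1.7e-06) and at least 8.18-fold lower than in ALL tubules. With normexp the difference from EGFP- was -1.33 ± 0.50 SE, or 2.52-fold, below that bound and no longer past the threshold (adjusted p = 0.0503).

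Acta2 encodes smooth muscle alpha-actin, which the array reads with 5 probes on the minus strand of chromosome 19, and the probes disagreed. The following sequences, from the scanner files and written 5′ to 3′, show the brightest probe, which did not fall in EGFP+ tubules, and the first 30 of 60 bases of 2 probes that did.
Acta2 A_51_P450957: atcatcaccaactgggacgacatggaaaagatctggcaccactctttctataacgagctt
Acta2 A_52_P420504: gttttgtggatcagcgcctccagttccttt
Acta2 A_52_P210078: acactgacttcacagctagagtgactattt
The first maps to 34314502 to 34317756 (mm8), a span of 3255 bases for 60 bases of probe, so it joins separate stretches of the gene, and its sequence has 0 stop codons in the reading frame that starts at its base 1. The second lies at 34307567 to 34307626 and the third at 34307204 to 34307263, both nearer the gene's 3′ end.

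The probe at 34307567 was measured on 10 spots per array, with a median SD of 0.05 between the spots of an array, and was well above background on all 12 arrays. Its EGFP+ levels were -2.25, -1.66, -3.20 and -2.44 in mice 1 to 4. Its ALL levels were 1.0, 0.75, 0.59 and 0.57, and its EGFP- levels 0.98, 1.19, 1.03 and 0.90. All EGFP+ values lay below all others, and ALL and EGFP- overlapped. By this probe Acta2 was 10.6-fold lower in EGFP+ than in EGFP- tubules (95% confidence interval 7.20 to 15.7; -3.41 ± 0.26 SE, limma adjusted p = 4.0e-07) and 8.67-fold lower than in ALL. With normexp it was 6.29-fold lower than in EGFP- tubules. Within slides 1, 2 and 3 the difference from EGFP- was -2.94, -4.39 and -3.41.

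The probe at 34307204 had no EGFP+ array well above background and gave at least a 4.41-fold lower level than in EGFP- tubules (limma adjusted p = 1.7e-06). A dimmer probe at 34306703 to 34306761, well above background on 3 of 4 EGFP- arrays and on no EGFP+ array, gave at least 1.30-fold (adjusted p = 6.8e-04). Both lost their call with normexp, with differences of -0.38 (adjusted p = 0.468) and, in the opposite direction, 0.48 (adjusted p = 0.427). The probe at 34319453 to 34319512 was well above background on 1 of 12 arrays, the EGFP- array of mouse 2, and was not tested.

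The probe at 34314502 was the exception. Its EGFP+ levels were 2.10, 1.81, 2.01 and 1.47 in mice 1 to 4, its ALL levels 1.56, 1.69, 1.71 and 1.06, and its EGFP- levels 1.76, 1.85, 1.73 and 1.10. The 3 fractions overlapped. The difference between EGFP+ and EGFP- was 0.24 ± 0.21 SE (95% confidence interval -0.22 to 0.70, limma adjusted p = 0.349), an interval that does not reach the falls of the other probes. Against ALL it was 0.34 ± 0.21, higher in 4 of 4 mice (adjusted p = 0.188), and this call changed with the fit. With mouse as a block it was 0.34 ± 0.10 (adjusted p = 0.0138), with arrays centred on their medians 0.50 (adjusted p = 0.0428), and without mouse 4 it was 0.32 (adjusted p = 0.0415).

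Actins are encoded by several genes whose coding sequences are nearly alike, and which transcripts the probe at 34314502 binds was not tested. The other actin genes on the array, looked at after the values of Acta2 were seen, did not share a direction. Actg1, a cytoplasmic actin of most cells, was higher in EGFP+ than in EGFP- tubules on both of its probes (0.66 ± 0.11 and 0.81 ± 0.14 SE, limma adjusted p = 3.3e-04 and 4.1e-04). Actb, the other cytoplasmic actin, differed by 0.25 and -0.28 on 2 probes (adjusted p = 0.568 and 0.0517). The files place the first on chromosome 5 and the second on chromosome X, so these probes of 1 gene name map apart. The cardiac actin Actc1 was lower (-1.43 ± 0.42 SE, adjusted p = 0.0118), with 3 of 4 EGFP+ arrays well above background. The skeletal actin Acta1 was lower too (-2.12 ± 0.28 SE, adjusted p = 4.4e-05), with 0 of 4 EGFP+ and 3 of 4 EGFP- arrays well above background, and Actg2 of visceral smooth muscle differed by -0.61 (adjusted p = 0.113).

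Over the 12 arrays the Acta2 probe at 34314502 correlated with the one at 34307567 at r = -0.42, and over the 8 ALL and EGFP- arrays at 0.46. With the probes at 34307204 and 34306703 it correlated at -0.23 and -0.45 over the 12 arrays, and at 0.89 and 0.02 over the 8. The arrays share mice and slides. The 3 genes outside the 9 whose levels were most like those of the probe at 34314502 over the 12 arrays were Rragc (r = 0.9779), the transcript ENSMUST00000098958 (0.9726) and Man2c1 (0.9717), none of which passed the test between EGFP+ and EGFP- tubules. Those most like the probe at 34307567, a probe chosen after its values were seen, were Pik3cd (0.9953), Arhgap27 (0.9946) and Card14 (0.9944), with differences of -5.12, -4.74 and -3.53.

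**Figure D3:**
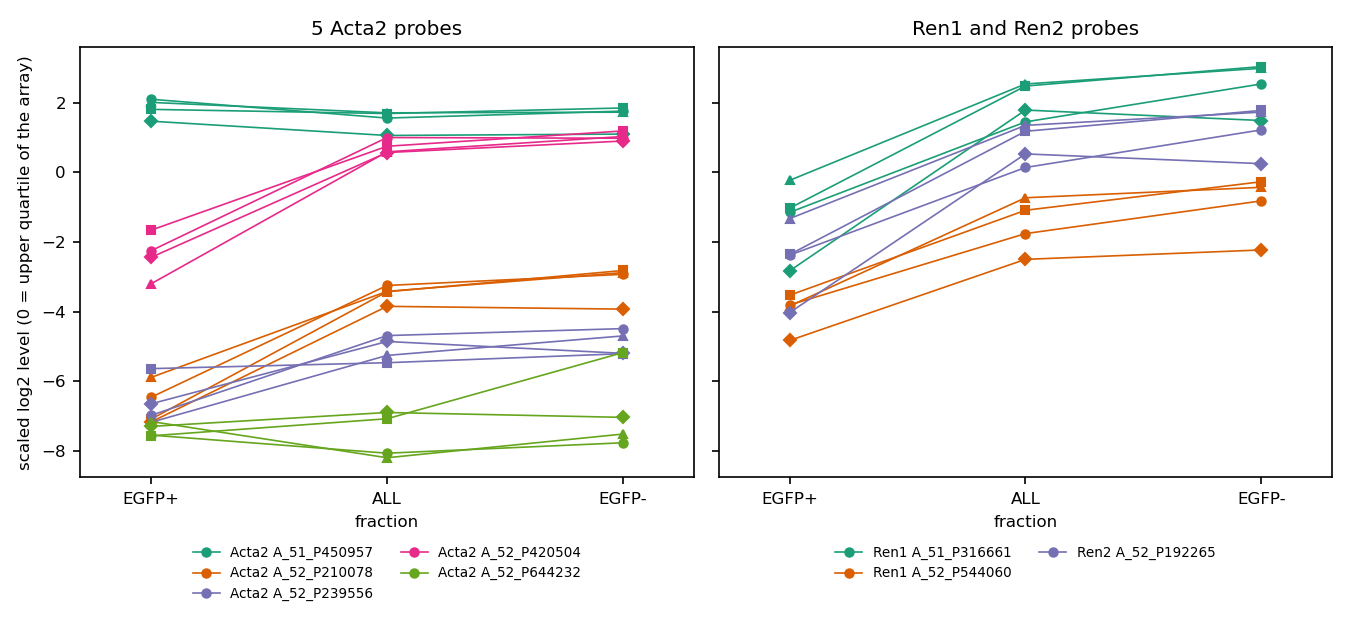
Scaled log2 level of the 5 Acta2 probes (left) and of the Ren1 and Ren2 probes (right) in each fraction. Lines join the fractions of 1 mouse, with circles for mouse 1, squares for mouse 2, triangles for mouse 3 and diamonds for mouse 4. The Acta2 probe A_51_P450957 is level across fractions while A_52_P420504 drops in EGFP+ tubules, and the brighter Ren1 probe runs parallel to Ren2.

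Tagln encodes transgelin (SM22), an actin-bundling protein of smooth muscle, and has 2 probes on the minus strand of chromosome 9. The brighter one, at 45681009 to 45681068 (mm8), gave -1.21, -0.58, -1.80 and -1.36 in EGFP+ tubules of mice 1 to 4. It gave 1.10, 0.84, 0.71 and 0.91 in ALL and 1.18, 1.10, 1.13 and 1.16 in EGFP- tubules. Its EGFP- values were the tightest of any tested probe of the 9 genes (SD 0.04). Tagln was 5.21-fold lower in EGFP+ than in EGFP- tubules (95% confidence interval 3.80 to 7.13; -2.38 ± 0.21 SE, limma adjusted p = 1.4e-06), with within-slide differences of -2.08, -2.89 and -2.51. The dimmer probe, at 45681828 to 45681887, fell by 3.24 on the log2 scale, with 2 of 4 EGFP+ arrays well above background, and lost its call with normexp, with a difference of -0.94 (adjusted p = 0.0686) where the brighter probe gave -2.01.

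The 2 Tagln probes read stretches of the transcript that lie apart, shown here to set them side by side, the brighter by its first 30 bases. Whether their differences are unequal was not tested.
Tagln A_51_P450527: ctttgaaggagacccagcccagcctctaca
Tagln A_52_P517683: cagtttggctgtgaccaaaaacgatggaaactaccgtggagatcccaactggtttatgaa

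Myh11, the smooth muscle myosin heavy chain, was read by a probe at 14108708 to 14111632 on chromosome 16 (mm8, minus strand; 60 bases over a span of 2925). Its levels were -3.07, -3.22, -3.93 and -3.16 in EGFP+ tubules, -0.93, -1.35, -1.10 and -1.71 in ALL, and -1.08, -1.01, -0.58 and -1.40 in EGFP- tubules. The EGFP+ values lay apart from the rest, with mouse 3 the lowest of them and the highest in EGFP-. Myh11 was 5.02-fold lower in EGFP+ than in EGFP- tubules (-2.33 ± 0.24 SE, limma adjusted p = 5.2e-06), with within-slide differences of -2.06, -2.92 and -2.17. With normexp the difference was -1.34 ± 0.24 SE, or 2.53-fold (adjusted p = 9.1e-04).

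Cnn1, the calponin that binds actin in smooth muscle, was dim (chromosome 9, 21859016 to 21859075, mm8, plus strand). Its EGFP- levels were -3.14, -3.19, -2.42 and -3.12 and its ALL levels -3.15, -4.16, -3.39 and -3.11. Only the EGFP+ array of mouse 2, at -5.29, was well above background, and the other 3 were measured at -7.02, -7.23 and -7.38. The fitted difference from EGFP- was -3.77 ± 0.42 SE (limma adjusted p = 1.2e-05), and with normexp it was -0.63 with an adjusted p of 0.237.

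A list of 18 further contractile genes was read beside them, of which 15 were tested on 1 probe per gene. In EGFP+ against EGFP- tubules 11 were lower, 1 was higher and 3 did not pass, with a median difference of -2.56. Of all tested probes 23.4% were lower and 34.7% higher. Cald1, Synm and Mustn1 had no EGFP+ array well above background, so that only a fall could be called for them. Mylk, the kinase that phosphorylates the myosin light chain, was 31.9-fold lower, and its substrate's gene Myl9 was 24.1-fold lower. Vim, the intermediate filament vimentin, was 18.8-fold lower, and Cald1 (caldesmon) was at least 11.1-fold lower. Synm (synemin, a partner of desmin) was at least 6.71-fold lower. The 1 gene that was higher, named after its value was seen, was Cnn3, a calponin of non-muscle cells, 1.98-fold. With normexp 7 of the 15 were lower.

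Ren1 has 2 probes on the plus strand of chromosome 1. Mice of some strains carry a second renin gene, Ren2, next to Ren1, and the array has a Ren2 probe as well. The 3 probe sequences are shown to set the renin probes side by side, with a stop codon in capitals and the last 2 by their first 30 bases.
Ren1 A_51_P316661: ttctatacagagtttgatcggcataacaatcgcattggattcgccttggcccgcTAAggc
Ren1 A_52_P544060: caggctcagtgctgaatggggcgtattcac
Ren2 A_52_P192265: caagccaagctggcactcttgggggccatt
The first, at 135187628 to 135187687 (mm8), holds a stop codon at its bases 55 to 57 in the frame that starts at base 1, and its list of accessions in the files holds RefSeq transcripts of both Ren1 and Ren2. The second, at 135181736 to 135181795, lists Ren1 alone. The files place the Ren2 probe at 135187713 to 135187774, its 60 bases over a span of 62, with 25 bases between it and the first Ren1 probe. This is where the probe was mapped, and it does not give the position of the Ren2 gene.

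By the brighter probe, EGFP+ levels were -1.15, -1.03, -0.23 and -2.83 in mice 1 to 4. ALL levels were 1.45, 2.48, 2.54 and 1.79, and EGFP- levels 2.54, 3.04, 2.99 and 1.49. No EGFP+ value reached those of the other fractions, but the mice were spread more widely than for Pdgfrb or Tagln, with an SD of 1.09 in EGFP+ tubules. This probe was 14.2-fold lower in EGFP+ than in EGFP- tubules (95% confidence interval 6.47 to 31.1; -3.83 ± 0.52 SE, limma adjusted p = 5.5e-05) and 10.4-fold lower than in ALL. Within slides the difference from EGFP- was -3.63, -3.27 and -5.07. The probe that lists Ren1 alone gave -3.81, -3.53, -3.84 and -4.83 in EGFP+ tubules, with 3 of 4 arrays well above background, and -0.82, -0.27, -0.43 and -2.23 in EGFP- tubules. It was 8.36-fold lower (4.01 to 17.4; adjusted p = 1.9e-04), and 2.94-fold lower with normexp (adjusted p = 0.0104). Both renin probes thus fell.

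The Ren2 probe followed the brighter Ren1 probe at r = 0.9995 over the 12 arrays, which share mice and slides, and was itself lower (-3.77 ± 0.53 SE, limma adjusted p = 7.4e-05). Whether these mice carry Ren2 is not given in the sources used here, and the signal of the 2 genes cannot be told apart by the brighter Ren1 probe, whose accessions name both, and the Ren2 probe. The next genes by likeness to that Ren1 probe were Mrpl50 (r = 0.9807) and Sema4a (0.977). The ALL level of this probe was 47.0%, 68.0%, 72.7% and 123% of the EGFP- level in mice 1 to 4, and that of the other Ren1 probe 52.4%, 56.6%, 81.5% and 82.9%.

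Of 14 genes of renin cells and the renin system, 11 were tested. In EGFP+ against EGFP- tubules 9 were lower, 1 was higher and 1 did not pass, with a median of -3.61. Over all tested probes 23.4% were lower and 34.7% higher. Gja5, the connexin that couples renin cells, was 80.4-fold lower (-6.33 ± 0.43 SE, limma adjusted p = 1.5e-07). Agtr1a, the angiotensin receptor, which is on the mesangial list as well, was 40.9-fold lower. Agt, angiotensinogen, which proximal tubules make as well, was 38.7-fold lower. Ptger4, a prostaglandin E receptor, was at least 14.3-fold lower. It had no EGFP+ array well above background, so that only a fall could be called. The gene that was higher, named after its value was seen, was Adrb1, the beta-adrenergic receptor through which nerves stimulate renin release, at 34.0-fold (5.09 ± 0.25 SE, adjusted p = 1.5e-08). Atp6ap2, the prorenin receptor, differed by 0.08 (adjusted p = 0.494).

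Rgs5, a regulator of G protein signalling that marks pericytes and arteriolar smooth muscle, has 2 probes on the plus strand of chromosome 1. The probe at 171529565 to 171529624 (mm8) gave -3.04, -2.01, -3.11 and -2.74 in EGFP+ tubules, -0.63, -0.58, -0.61 and -0.77 in ALL and -0.47, -0.38, -0.21 and -0.61 in EGFP- tubules. The probe at 171531362 to 171531421 gave -2.59, -2.62, -3.44 and -3.32 in EGFP+, -0.64, -0.74, -0.79 and -2.08 in ALL and -0.47, -0.45, -0.42 and -1.72 in EGFP- tubules. The EGFP+ arrays were low on both, and mouse 4 stood apart in the ALL and EGFP- fractions on the second probe only. Rgs5 was 4.96-fold lower in EGFP+ than in EGFP- tubules by the first (3.61 to 6.82; limma adjusted p = 1.9e-06) and 4.69-fold lower by the second (2.62 to 8.39; adjusted p = 3.7e-04). With normexp it was 2.83-fold and 2.46-fold lower (adjusted p = 3.5e-04 and 0.0102).

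Pericyte genes beside Rgs5 fell too. Of 10 listed, 8 were tested and 7 were lower in EGFP+ than in EGFP- tubules, with a median of -3.14. In that comparison 23.4% of all tested probes were lower. Cspg4, the NG2 proteoglycan of pericytes, was 16.1-fold lower and Abcc9, a subunit of their potassium channel, at least 6.95-fold lower. Angpt1 differed by 0.45 (limma adjusted p = 0.321), and with normexp 3 of the pericyte genes were lower and 1 higher. Of 14 mesangial genes 13 were tested and all 13 were lower, with a median of -5.28. Among them Sfrp2, a secreted modulator of Wnt signalling, was 95.5-fold lower. Itga8, the integrin of mesangial cells, was 82.1-fold lower, and Serpine2 at least 22.4-fold lower. Serpine2 and Thy1 of the mesangial and Abcc9, Rgs4 and Higd1b of the pericyte genes had no EGFP+ array well above background. Only a fall could be called for these. The genes most like Pdgfrb over the 12 arrays were Sparc (r = 0.999), D130043K22Rik (0.9989) and Sgip1 (0.9987).

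The fall was not of the same size for all members. In EGFP+ tubules, among probes well above background on all 12 arrays, Pdgfrb kept 2.34% to 4.14% of the EGFP- level of the same mouse, Ren1 5.01% to 10.7% and Acta2 at 34307567 5.32% to 13.9%. Tagln kept 13.1% to 31.2%, Myh11 9.81% to 29.5% and the Rgs5 probes 12.3% to 33.1% and 13.4% to 32.3%. The range of Pdgfrb thus did not overlap with that of any of the others, a difference between probes that was not tested. Over the 8 such probes, with the Acta2 probe that did not fall included, the median was 17.9% ± 4.53 in EGFP+ and 83.6% ± 7.23 in ALL tubules (SD, n = 4). Normexp gave 30.3% for EGFP+.

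**Figure D4:**
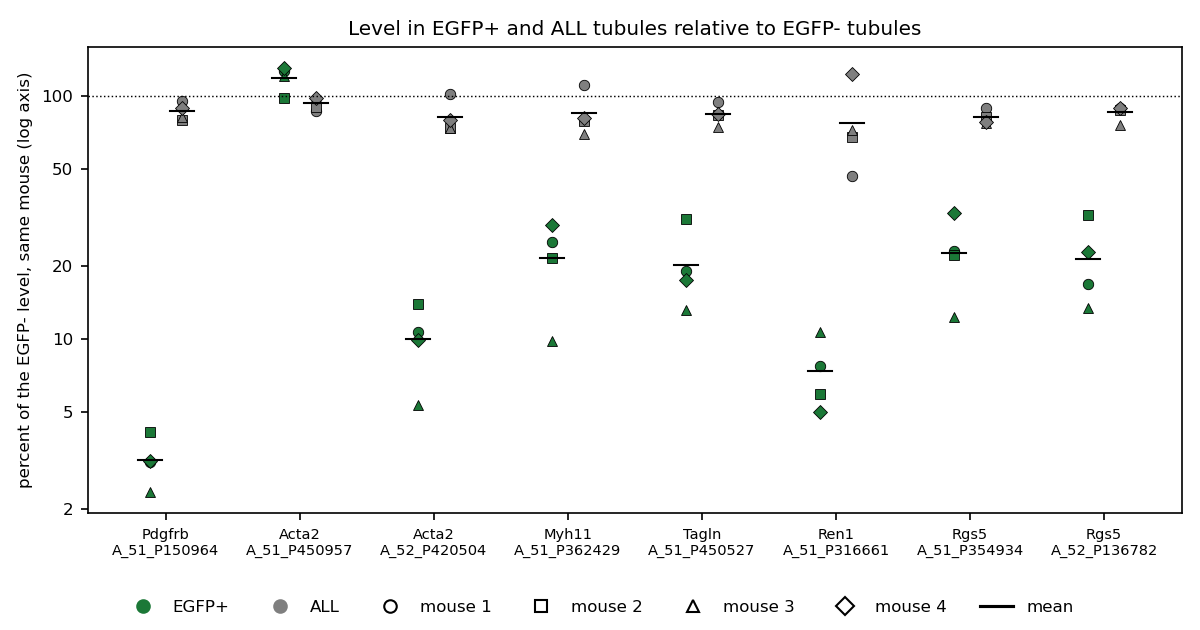
Level in EGFP+ (green) and ALL (grey) tubules as a percent of the EGFP- level of the same mouse, on a log axis, for the 8 probes well above background on all 12 arrays. Shapes are mice and bars are means. Pdgfrb lies at 2.34% to 4.14% in EGFP+ tubules, and the Acta2 probe A_51_P450957 at 97.8% to 130%.

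Lists of other cell types were read in the same way, as the median over each list's genes well above background on every EGFP+ and EGFP- array. Genes near background in EGFP+ tubules are thus left out. This kept 6 mesangial, 4 podocyte, 9 endothelial, 5 pericyte, 11 contractile and 4 proximal tubule genes. In EGFP+ tubules, mesangial genes kept 1.97% to 3.67% of the EGFP- level and podocyte genes 2.10% to 3.04%. Endothelial genes kept 7.35% to 13.8%, pericyte genes 11.9% to 16.8%, contractile genes 19.7% to 22.4% and proximal tubule genes 1.98% to 5.09%. By count, 8 of 8 tested podocyte genes, 10 of 10 endothelial and 6 of 6 proximal tubule genes were lower. So were 7 of 10 fibroblast and matrix and 6 of 8 leukocyte genes, and 6 of 6 DCT genes were higher. The shares of all tested probes were 23.4% lower and 34.7% higher. Fbn1, Fn1, Fbln1 and Postn (matrix) and Tyrobp, Laptm5 and Itgam (leukocyte) had no EGFP+ array well above background. Only a fall could be called for these. Pvalb (DCT) had no EGFP- array well above background, so that only a rise could be called. With normexp 2 of the fibroblast and matrix and 3 of the leukocyte genes were lower, and with the stricter filter on dim probes 4 of the fibroblast and matrix genes. Among podocyte genes, Ptpro was 108-fold lower and Nphs1, the slit diaphragm protein nephrin, 86.8-fold lower, each with 3 of 4 EGFP+ arrays well above background. Cldn5, an endothelial junction protein, was 53.7-fold lower. The part of these cells in the levels of the 9 genes was not tested.

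**Figure D5:**
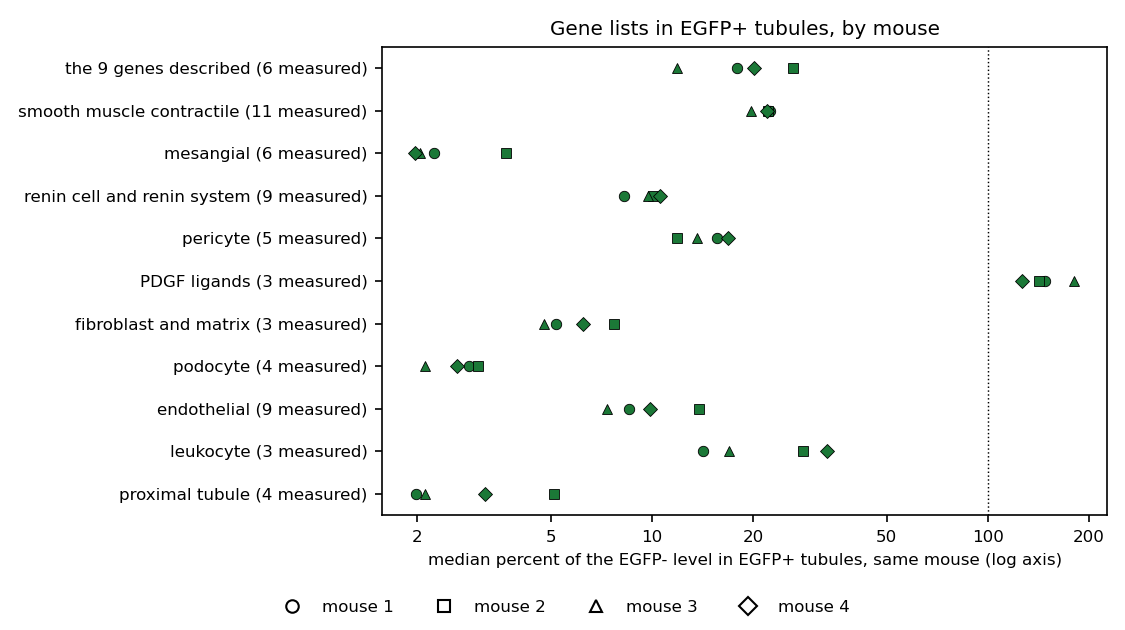
Median percent of the EGFP- level in EGFP+ tubules, on a log axis, with 1 point per mouse. It covers the genes of each list that were well above background on every EGFP+ and EGFP- array. Mouse 2 is the highest for the 9 genes described and for the mesangial, podocyte, endothelial, fibroblast and proximal tubule lists. It is the lowest for the pericyte list, and other mice are the highest for the contractile, renin, leukocyte and PDGF ligand lists.

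The mice differed among themselves in the EGFP+ fraction. Mouse 2 had the highest EGFP+ percent for Pdgfrb, for Acta2 at 34307567, for Tagln at 45681009 and for Rgs5 at 171529565. It was also the highest for proximal tubule genes, at 5.09% against 1.98% to 3.18% in the others. For pericyte genes it was the lowest, at 11.9% against 13.6% to 16.8%. Mouse 3 was the lowest for these 4 probes and for Myh11, yet the highest for the brighter Ren1 probe, at 10.7%. Without the EGFP+ array of mouse 2, an alternative chosen after seeing the data, 14 of 15 probes were again lower in both comparisons.

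Mouse 4 was low in the ALL and EGFP- fractions for some members. Relative to the mean of the other 3 mice, Des was at -1.74 in ALL and -1.65 in EGFP- tubules, Rgs5 at 171531362 at -1.36 and -1.28, and the probe of Ren1 alone at -1.31 and -1.72. Of all tested probes, 95% lay between -1.44 and 1.09 in ALL and between -1.43 and 1.05 in EGFP- tubules of that mouse. Tagln at 45681009 was at 0.03 and 0.02, and Rgs5 at 171529565 at -0.17 and -0.26. These 2 arrays had the lowest 75th percentiles, and the EGFP+ array of mouse 4 was the dimmest of its fraction. All arrays of mouse 4 were on slide 3. The part of dimness or slide was not tested.

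Between ALL and EGFP- tubules 0 of the 15 probes passed the test (limma, adjusted p of 1.0 throughout, and 0 of 15 at an unadjusted p under 0.05), where 0.00387% of all tested probes were lower and 1.05% higher in ALL. All 15 differences were nonetheless negative, from -0.58 (Ren1 alone) to -0.10 (Acta2 at 34314502), with a median of -0.27 against -0.01 over all tested probes. In 9 of the 15 probes the ALL level was lower in 4 of 4 mice, but for no probe did the fractions separate. Such signs were not counted over all tested probes. The 15 probes share arrays, and some share a gene, so they are not independent. With normexp 5 of the 15 had the opposite sign. For Pdgfrb the difference was -0.21 with a 95% confidence interval from -0.70 to 0.27. This fit leaves the pairing by mouse unused, though the ALL and EGFP- deviations of a mouse correlated at 0.70 to 0.81. Its intervals and unadjusted p-values are therefore wide or large for a paired design. With mouse as a block 0 member probes passed at the adjusted threshold as well, and unadjusted p-values were not counted there.

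Sex was compared on the mean of the fractions of each mouse, 2 males against 2 females, so that the precision is low. None of the 15 probes passed (limma adjusted p from 0.248 to 0.965), with 1 of 15 at an unadjusted p under 0.05, where 1.19% of all tested probes passed. The smallest p was that of Acta2 at 34307204 (-0.58 ± 0.22 SE, male minus female). Des differed by -0.81 ± 0.31 and Ren1 by -0.53 ± 0.52 on the brighter probe. For Des the males were unlike, at -1.74 in mouse 2 and -3.24 in mouse 4 in EGFP- tubules, beside -1.42 and -1.61 in the females. The mouse means of Des and of this Acta2 probe include EGFP+ signals not well above background. A test of whether the difference between EGFP+ and EGFP- depends on sex passed for 0 of 15 probes (adjusted p from 0.350 to 0.839, and 3 of 15 at an unadjusted p under 0.05), and for 0% of all tested probes.

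The promoters of the members were searched for the CArG box, the element that binds serum response factor and through which smooth muscle genes are often switched on. RefSeq promoter windows (GRCm38.p6, 250 bases before to 50 after the start) were at hand for 6 of the 9 genes, namely Pdgfra, Des, Acta2, Cnn1, Ren1 and Rgs5. Both strands were read for CC, then 6 letters A or T, then GG, and for the same with at most 1 C or G among the 6. The strict form was in 0 of 6 windows (1.63% of 32851 windows overall). The form with at most 1 C or G was in 2 of 6, those of Acta2 and Ren1 (9.98% overall). The matches are printed with 10 bases on each side, on the strand of the gene, with the box in capitals, and distances run from its last base to the start.
Acta2, 75 bases before the start: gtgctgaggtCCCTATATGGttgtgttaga
Acta2, 25 bases before the start: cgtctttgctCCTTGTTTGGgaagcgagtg
Ren1, 83 bases before the start: aaacaggctgCCTTTCATGGtcccacaggc
A match is a description of letters, and no binding was measured here. Srf, the gene of the factor itself, differed by -0.18 ± 0.19 SE between EGFP+ and EGFP- tubules (limma adjusted p = 0.434).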

How the data were processed

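The 12 arrays are Agilent one-colour arrays of design 014868, read with Feature Extraction 9.5.3.1 per the file headers, and the deposited values used are intensities, namely the processed signal, which that software had corrected for background, and the mean and local background signals. RNA was extracted, amplified and labelled with Cy3, per the labels' protocols. The authors also deposited a table of values, which was not used here. Processed signals were scaled by the 75th percentile of each array's non-control spots, put on the log2 scale and averaged over the spots of a probe, without outlier spots. A probe was tested where at least 4 of 12 arrays had it well above background, with limma 3.58.1 (lmFit, eBayes) in R 4.3.3 with data.table (version 1.17.8). The model had a coefficient for each fraction and used all arrays, with Benjamini-Hochberg adjustment over all probes tested and a threshold of 0.05. Sex was tested on 1 value per mouse. The scripts were tested on simulated data.

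The number of arrays limits the precision. Mouse numbers pair the samples, since the labels name the mouse of each fraction. Within a mouse, deviations from the fraction means correlated at 0.31 to 0.36 between EGFP+ and ALL, 0.23 to 0.33 between EGFP+ and EGFP-, and 0.70 to 0.81 between ALL and EGFP-. Alternatives were other scalings, background correction and filters, mouse or slide as a block, values within slides, leaving out each mouse, and 1 probe per gene. All member probes were named. From other lists the rule names up to 3 genes with the largest difference among those past the threshold and measured in both fractions, and up to 2 with the largest bound, of which examples are given. The members and lists were chosen with earlier results of these data known. Gene names are those of the array's design. Coordinates are those of the probes in mm8, per the file headers, and exon or untranslated region status was not analysed here.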

Additional observations from a re-analysis of the deposited data

Results flagged for a closer look

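Over the 51 sets of 4 mice that the 17 probes and 3 fractions give, 7 held a mouse far from the other 3, its gap to the nearest being larger, as a share of the whole range, than Dixon's critical value for 4 samples at 95%. Chance flags about 1 in 20 such sets. Mouse 4 was apart in the EGFP- fraction for Acta2 A_51_P450957 at 1.10 (nearest 1.73), Acta2 A_52_P210078 at -3.93 (nearest -2.93) and Rgs5 A_51_P354934 at -1.72 (nearest -0.47), and in the ALL fraction for the same Rgs5 probe at -2.08 (nearest -0.79). Mouse 3 was apart in the EGFP+ fraction for Myh11 A_51_P362429 at -3.93 (nearest -3.22) and Tagln A_52_P517683 at -6.13 (nearest -5.00), and in the EGFP- fraction for Cnn1 A_51_P350817 at -2.42 (nearest -3.12).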

How the results depend on the processing

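For EGFP+ against EGFP- and against ALL alike, 14 member probes were lower in the main fit, 13 with the stricter filter, 9 with normexp and 8 at 1 probe per gene, where 9 were tested. Leaving out each mouse gave 14 in every case. Member probes higher in EGFP+ than in ALL numbered 0 in the main fit and 1 with arrays centred on the median, 1 with mouse as a block, and 0 to 1 on leaving out each mouse. That probe is Acta2 A_51_P450957, and the mouse block changed no other member's call. Counts were 0 for ALL against EGFP- under every alternative run. Between the sexes 1 probe passed with normexp. The median percent of the EGFP- level moved to 30.3 in EGFP+ with normexp. Normexp reversed the sign of Acta2 A_52_P239556 to 0.48 for EGFP+ against EGFP-, and of 5 probes for ALL against EGFP-, namely Des (0.06), Acta2 A_52_P210078 (0.25), Acta2 A_52_P239556 (0.70), Tagln A_52_P517683 (0.01) and Cnn1 (0.18). The cause was not tested. The median over all probes for EGFP+ against EGFP- was 0.17 in the main fit, 0.30 with median centring, 0.20 with quantile normalization and 0.34 with normexp, and against ALL it was 0.17, 0.33, 0.19 and 0.12. Higher and lower calls for EGFP+ against EGFP- numbered 8967 and 6039 (59.8% higher) in the main fit, 10003 and 5273 (65.5%) with median centring, 9467 and 6013 (61.2%) with quantile normalization and 7578 and 3787 (66.7%) with normexp. Against ALL the share higher was 60.3%, 67.8%, 61.6% and 58.1%. Probes dim in EGFP+ tubules have only a bound, and signal over background limits what they show.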
